A study of Homo sapiens with 8 samples.

Results

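MiR-28, miR-151 and miR-708 form a small family of related miRNAs, and 7 mature members of it, listed by name, were followed among the 1780 mature miRNAs counted in the series. The members are hsa-miR-28-3p, hsa-miR-28-5p, hsa-miR-151a-3p, hsa-miR-151a-5p, hsa-miR-151b, hsa-miR-708-5p and hsa-miR-708-3p. Small RNA was sequenced from DLD1 and HT29, both established human colorectal adenocarcinoma cell lines, after 6 days of growth either as a monolayer (2D) or as multicellular spheroids (MCS) in round-bottom wells coated with agarose. There were 8 libraries, 2 replicates for each line and culture. The cells carried no transgene and received no treatment. For 2D, 35000 DLD1 or 100000 HT29 cells were seeded in a flask, and for MCS 7000 DLD1 or 3500 HT29 cells in a well. DLD1 cells grew in RPMI and HT29 cells in DMEM, and libraries were made with version 3 of the small RNA kit for DLD1 and version 2 for HT29. Cell line, medium and kit therefore cannot be told apart. The labels do not say whether replicates came from separate cultures, so p-values measure the spread between these libraries.

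A miRNA hairpin is cut to a duplex whose 5p and 3p arms can each be loaded into an Argonaute protein and guide it to mRNAs, mainly through the seed, bases 2 to 8 of the mature strand. The hairpins of miR-28 and miR-151a arose from LINE-2 transposable elements and lie inside protein-coding genes. That of miR-28 lies in LPP, which encodes a LIM domain protein of cell adhesion sites, and that of miR-151a in PTK2, which encodes focal adhesion kinase. In published work miR-28-5p is known as a repressor of growth in tumour cells, and miR-151a-5p for promoting migration of liver cancer cells. MiR-28-5p and miR-708-5p are usually placed in the same seed family.

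In GRCh37, the build to which the authors aligned the reads, the MIR28 hairpin occupies chr3:188406569-188406654 (plus strand) within an intron of LPP (chr3:187871072-188608460, same strand). The MIR708 hairpin occupies chr11:79113066-79113153 (minus strand) within an intron of TENM4, which encodes a teneurin of the cell surface (chr11:78363874-79152074, same strand). The MIR151B hairpin occupies chr14:100575756-100575851 (minus strand), opposite an intron of EVL, an actin regulator transcribed from the plus strand. These positions come from GENCODE release 44 lifted to GRCh37. The mature table of RefSeq (GRCh38.p14) held 3 of the 7 members. Those 3 are shown because their letters show how close the arms of miR-28 and miR-708 are, together with the miRNA that shares a seed with one of them. Sequences run 5′ to 3′, with the seed in capitals.
hsa-miR-28-3p: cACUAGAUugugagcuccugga
hsa-miR-708-3p: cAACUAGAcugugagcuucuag
hsa-miR-708-5p: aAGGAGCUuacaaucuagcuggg
hsa-miR-3139: uAGGAGCUcaacagaugccuguu

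Moved by 1 base, miR-28-3p and miR-708-3p matched at 17 of 21 bases (81.0%), with a longest shared run of 8 bases (UGUGAGCU). Their seeds, ACUAGAU and AACUAGA, differ by that shift. In the table of 2370 mature miRNAs no other miRNA had the seed of miR-28-3p or of miR-708-3p, and 1, miR-3139, had that of miR-708-5p (AGGAGCU). Members that this table does not hold, miR-28-5p among them, could not be compared. Each of the 4 sequences was found once on its chromosome in GRCh37, miR-28-3p at chr3:188406622-188406643 (plus strand), miR-708-3p at chr11:79113076-79113097 (minus strand), miR-708-5p at chr11:79113121-79113143 (minus strand) and miR-3139 at chr4:144264622-144264644 (plus strand). How a read that matches several mature miRNAs was counted is not given in the sources used here, so the closely related miR-151b and miR-151a-5p may share reads.

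Between libraries, miRNA counts totalled from 10495634 to 26211524. Levels are given as counts-per-million (CPM), either of the library total or normalized, that is divided also by edgeR's upper quartile factor computed over all miRNAs with a count in the cell line. These factors ran from 0.746 to 1.17 in the DLD1 libraries and from 0.522 to 1.66 in those of HT29, where both replicates numbered 1 were below 0.75 and both replicates numbered 2 above 1.5. For the 5 members tested in HT29, normalized values therefore differed more between replicates of the same culture than CPM of the total did. A mean of 10 CPM of the total over the libraries of a line was needed for a test, which 4 of the 7 members reached in DLD1 and 5 in HT29.

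The arms of miR-151a were the most abundant members in both lines and those of miR-708 the least. Over the libraries of a line, miR-151a-5p averaged 4998 CPM of the total in DLD1 and 7568 in HT29, and miR-151a-3p 4966 and 4729. MiR-28-3p averaged 1263 CPM in DLD1 and 288 in HT29, and miR-28-5p 403 and 142. MiR-151b averaged 5.68 and 10.5 CPM, miR-708-3p 1.42 and 1.12 CPM, and miR-708-5p 0.0903 and 0.00954 CPM. Ranked by the mean CPM of a group, miR-151a-5p stood at place 33 in DLD1 2D, 35 in DLD1 MCS and 19 in both HT29 cultures. MiR-28-3p stood at 65, 61, 106 and 98 in DLD1 2D, DLD1 MCS, HT29 2D and HT29 MCS. Both arms of miR-28 thus stood at lower places in HT29 than in DLD1, since miR-28-5p moved from 106 and 96 in DLD1 to 129 and 130 in HT29, and miR-151a-5p stood higher.

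**Figure D1:**
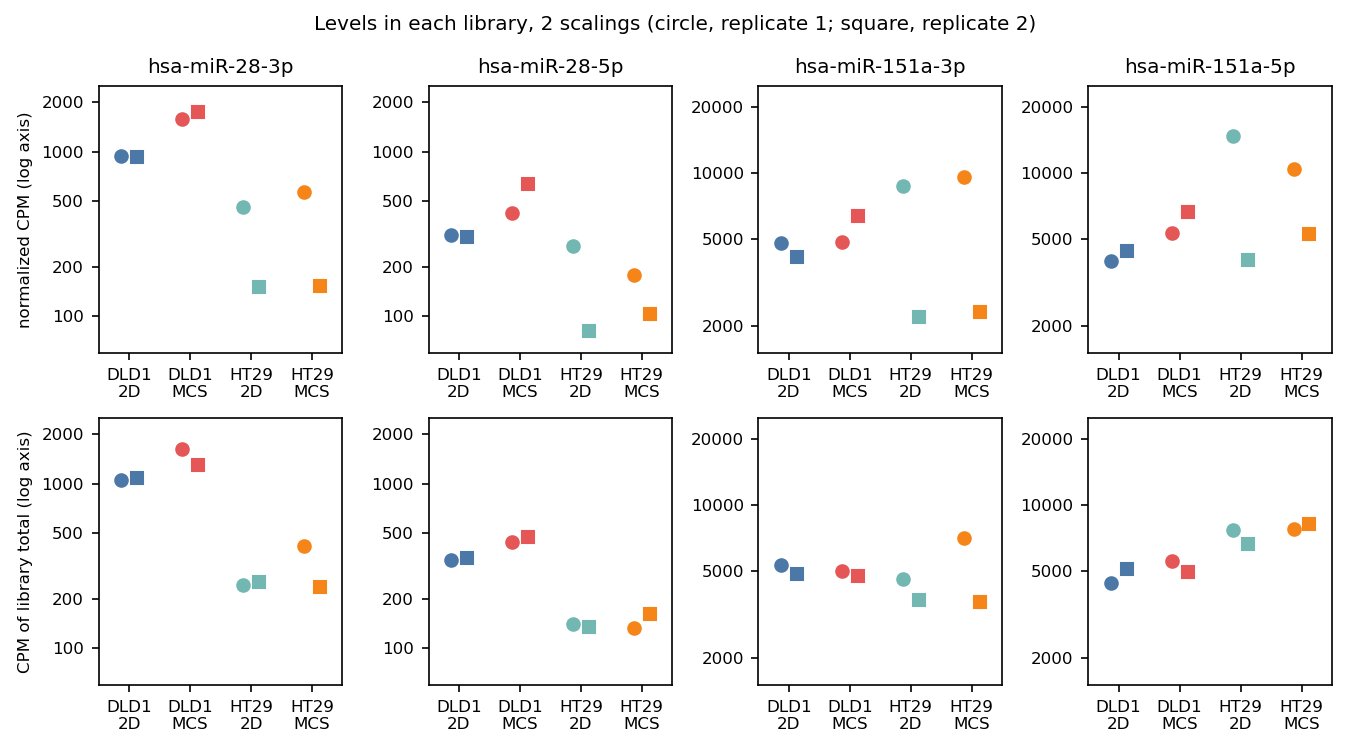
Levels of the 4 abundant members in each library on log axes, as normalized CPM (upper row) and as CPM of the library total (lower row); circles are replicate 1 and squares replicate 2 of the groups named on the horizontal axis. In DLD1 both MCS points of miR-28-3p lie above both 2D points on either scale. In HT29 2D the replicates lie far apart in the upper row (464 and 152 normalized CPM for miR-28-3p) and closer in the lower row (242 and 252 CPM). In HT29 MCS the replicates of miR-28-3p lie apart in the lower row too (419 and 237 CPM).

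In DLD1 cells both arms of miR-28 passed the test as higher in MCS with upper quartile factors, but not under every scaling. MiR-28-3p rose 1.76-fold and miR-28-5p 1.73-fold, while miR-151a-5p (1.44-fold) and miR-151a-3p (1.25-fold) did not pass the test. The level of miR-28-3p was 946 and 933 normalized CPM in the 2D libraries and 1566 and 1733 in the MCS libraries. On this scale the MCS libraries lay above those of 2D by far more than replicates differed, with means of 1649 ± 118 against 939 ± 9.33 (SD, n = 2). On CPM of the library total they did not. There the MCS libraries (1622 and 1292) differed more from each other than the lower of them did from the higher 2D library (1089). The log2 fold change was 0.81 (standard error 0.23, 95% interval 0.36 to 1.26, adjusted p = 0.00161 by edgeR's quasi-likelihood fit, adjusted after Benjamini-Hochberg over all tested miRNAs). MiR-28-5p had 311 and 303 normalized CPM in 2D, against 426 and 636 in MCS. Its MCS libraries were both higher than its 2D libraries but differed more from each other than those of the 3p arm, and the fitted log2 fold change was 0.79 (standard error 0.23, 95% interval 0.33 to 1.25, adjusted p = 0.00281 in the same edgeR test). A call here means a fold change of at least 1.5 and an adjusted p under 0.05, and 2 of the 4 tested members were called, both higher. Of all 346 miRNAs tested, 41.3% were called and 29.8% were called as higher.

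MiR-151a-5p had 3969 and 4377 normalized CPM in DLD1 2D and 5332 and 6650 with MCS growth. All MCS values lay above those of 2D, and the log2 fold change of 0.52 (standard error 0.25, 95% interval 0.03 to 1.01) came with an adjusted p of 0.0795 (edgeR, quasi-likelihood). MiR-151a-3p had 4805 and 4121 normalized CPM in 2D and 4821 and 6342 with MCS growth. The lower MCS library and the higher 2D library were nearly level, and the log2 fold change of 0.32 (standard error 0.25, 95% interval -0.16 to 0.81) had an adjusted p of 0.300 in the same edgeR test. With the normalized CPM, both MCS libraries were above both 2D libraries for these 4 members, as for 45.4% of all tested miRNAs. With CPM of the library total this held for the arms of miR-28 only (miR-28-3p 1049 and 1089 in 2D against 1622 and 1292 in MCS, miR-28-5p 345 and 353 against 441 and 474), as for 29.5% of all tested miRNAs.

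The size of the rise followed the scaling of the libraries. A change of scaling moves all miRNAs together, so the place of a member relative to their median can hardly change. That place is thus no separate support for the rise. The median log2 fold change over all 346 miRNAs was 0.23 with the upper quartile over all counted miRNAs. It was 0.02 with trimmed means of M values (TMM) and 0.11 with edgeR's relative log expression factors (RLE). With library totals alone it was -0.14, and with an upper quartile of tested miRNAs only -0.22. Under them, in that order, the log2 fold change of miR-28-3p was 0.81, 0.61, 0.69, 0.45 and 0.36. It lay 0.58 to 0.59 above the median each time, and miR-28-5p 0.53 to 0.56 above it. MiR-151a-5p was 0.28 to 0.29 above the median and miR-151a-3p 0.07 to 0.09, and the latter fell below 0 with library totals (-0.06) and with the upper quartile of tested miRNAs (-0.15). With these last scalings neither arm of miR-28 was called, with TMM only miR-28-3p was (39.9% of all miRNAs were), and with RLE both were (40.2%). With DESeq2 both had an adjusted p under 0.05 (0.000819 and 0.00854) but folds of 1.49 and 1.45, just short of 1.5. In a fit of all 8 libraries the folds were 1.73 and 1.69 with adjusted p of 0.561 and 0.504 in edgeR's quasi-likelihood test. Without either of the 2D libraries neither arm was called (folds of 1.57 to 1.62), and without replicate 2 of MCS miR-28-5p was at log2 0.41 (adjusted p = 0.132) while miR-28-3p was still called.

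**Figure D2:**
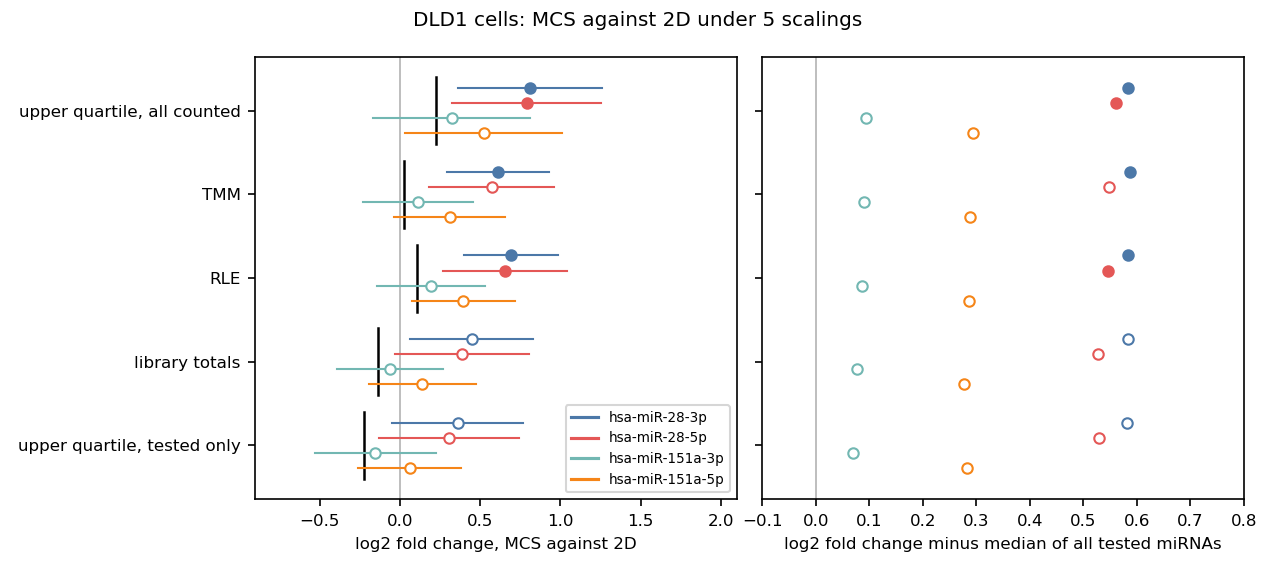
Fitted log2 fold change of MCS against 2D in DLD1 cells under 5 scalings (left; lines, 95% intervals; black ticks, median of all tested miRNAs) and the same fold change minus that median (right); filled points were called. On the left the points shift with the scaling, for miR-28-3p from 0.81 to 0.36. On the right they stay in place, since a scaling moves all miRNAs together, with both arms of miR-28 more than 0.5 above the median.

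In HT29 cells no difference between MCS and 2D was detectable for the members with 2 replicates of this spread. MiR-28-3p had 464 and 152 normalized CPM in 2D and 565 and 152 in MCS, and 242 and 252 CPM of the total in 2D and 419 and 237 in MCS. On either scale the groups overlapped, and replicate 1 of MCS was the highest library. MiR-28-5p had 140 and 135 CPM of the total in 2D and 133 and 161 in MCS. MiR-151a-5p had 7679 and 6625 CPM of the total in 2D and 7759 and 8210 in MCS, where the MCS libraries were slightly higher, as for 11% of the 301 tested miRNAs on this scale. MiR-151a-3p had 4569 and 3657 in 2D and 7090 and 3601 in MCS, replicate 1 of MCS again being highest. MiR-151b had 11.5 and 6.64 CPM of the total in 2D, and 11.2 and 12.5 in MCS.

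The fitted HT29 log2 fold changes were 0.22 for miR-28-3p (95% interval -2.03 to 2.48), -0.31 for miR-28-5p (-2.21 to 1.60), 0.12 for miR-151a-3p (-2.41 to 2.64), -0.25 for miR-151a-5p (-2.30 to 1.81) and -0.15 for miR-151b (-2.50 to 2.19). The adjusted p was 0.977 for each (edgeR, quasi-likelihood). These intervals include a change as large as that of miR-28-3p in DLD1 in either direction. They come from a fit without a replicate block, with standard errors of 0.74 to 0.97. With the block the standard errors were 0.32 to 0.42 and the log2 fold changes -0.12 to 0.25. None of the 5 members was called then (adjusted p = 0.811 to 0.947, edgeR, quasi-likelihood), while 15.6% of the tested miRNAs were. Of the 301 miRNAs tested in HT29, 0 were called (0%) by this test, 12 at an unadjusted p under 0.05, 12 by DESeq2 and 5 by edgeR's exact test. On normalized CPM the groups did not overlap for 28.6% of the tested miRNAs, and they overlapped for all 5 members. The sign of the fold change of each of the 5 members turned with at least 1 library left out.

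An interaction of line and culture, fitted over the 8 libraries, asked whether the lines responded differently. The log2 fold change in HT29 minus that in DLD1 was -0.60 for miR-28-3p (95% interval -2.93 to 1.74), -1.10 for miR-28-5p (-3.03 to 0.83), -0.21 for miR-151a-3p (-2.84 to 2.43) and -0.78 for miR-151a-5p (-2.83 to 1.28). Their adjusted p ran from 0.749 to 0.974 in edgeR's quasi-likelihood test. None of the 250 miRNAs with a test in both lines passed (0 of 250, 0%), with 23 at an unadjusted p under 0.05, and DESeq2 called 21. A call of miR-28 in DLD1 and none in HT29 thus does not show that the responses differ.

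Between the cell lines, miR-151a-5p was higher in HT29 than in DLD1, and the arms of miR-28 had lower values there. Both passed the test under some scalings only. With CPM of the library total, miR-28-3p ran from 1049 to 1622 in the DLD1 libraries and from 237 to 419 in those of HT29, and miR-28-5p from 345 to 474 and from 133 to 161. All HT29 libraries lay below all DLD1 libraries for both arms, as for 38.8% of the 250 tested miRNAs. MiR-151a-5p ran from 4402 to 5522 in DLD1 and from 6625 to 8210 in HT29. Here all HT29 libraries lay above, as for 9.6% of the tested miRNAs. MiR-151a-3p overlapped, with 4730 to 5329 CPM in DLD1 and 3601 to 7090 in HT29.

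In the fit with upper quartile factors, which compares the mean of both HT29 groups with that of both DLD1 groups, miR-151a-5p was 2.91-fold higher in HT29 (log2 1.54, standard error 0.44, adjusted p = 0.0204 in edgeR's quasi-likelihood test) and was the called member of the 4 tested. Of all tested miRNAs 58.8% were called, 31.2% as higher in HT29. The log2 difference was -1.14 for miR-28-3p (95% interval -2.32 to 0.04, adjusted p = 0.0881), -0.59 for miR-28-5p (-1.56 to 0.37, adjusted p = 0.242) and 0.96 for miR-151a-3p (-0.37 to 2.29, adjusted p = 0.172). With library totals alone, where 42.8% of the miRNAs were called, both arms of miR-28 were called, with log2 differences of -2.13 (adjusted p = 0.00225) for the 3p arm and -1.49 (adjusted p = 0.00615) for the 5p arm, and miR-151a-5p, at 0.60 (adjusted p = 0.0816), was not. MiR-28-3p was also called with TMM (adjusted p = 0.0473, with 52.8% of all miRNAs called), DESeq2 (adjusted p = 0.0117, 65.6%) and the upper quartile of tested miRNAs (adjusted p = 0.0369, 63.2%). MiR-151a-5p was called with TMM and DESeq2 too, but not with that upper quartile (log2 1.17, adjusted p = 0.0522), without replicate 1 of HT29 MCS (log2 1.22, adjusted p = 0.0556), or without any one of the DLD1 libraries (log2 1.46 to 1.61, adjusted p = 0.0678 to 0.0788). The median over all tested miRNAs was 0.04 with upper quartile factors and -0.64 with library totals. Relative to that median, miR-28-3p was lower and miR-151a-5p higher with both, a place that the scaling can hardly change.

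A ratio of 2 members within a library needs no scaling, but line, medium and kit cannot be told apart in it. The ratio of miR-151a-5p to miR-28-3p counts, chosen after their values were seen, was 4.20 and 4.69 in DLD1 2D, 3.40 and 3.84 in DLD1 MCS, 31.7 and 26.3 in HT29 2D and 18.5 and 34.6 in HT29 MCS. Every HT29 library was far above every DLD1 library. The geometric mean was 4.01 in DLD1 and 27.0 in HT29, a 6.75-fold difference (log2 2.76), given with no test since the pair was chosen for it. Leaving out any single library gave a log2 difference of 2.64 to 2.94, which is no separate support for a pair chosen for its difference. In DLD1 both MCS ratios were below both 2D ratios, and in HT29 the cultures overlapped. How many other pairs of miRNAs separate the lines or the cultures in this way was not counted.

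The 3p arm led in miR-28, whereas the arms of miR-151a were near balance in DLD1 and the 5p arm led in HT29. Of the counts of both miR-28 arms, the 3p arm took 75.2% (95% Wilson interval 74.7 to 75.8) and 75.5% (75.0 to 75.9) in DLD1 2D and 78.6% and 73.2% in DLD1 MCS. In HT29 it took 63.3% and 65.1% in 2D and 75.9% and 59.5% in MCS. Replicate 1 of HT29 MCS thus had the share of a DLD1 library, while the other HT29 libraries were below all of DLD1. For miR-151a the 3p share was 54.8% and 48.5% in DLD1 2D, 47.5% and 48.8% in DLD1 MCS, 37.3% and 35.6% in HT29 2D, and 47.7% and 30.5% in HT29 MCS. The same HT29 library stood apart, just above the lowest DLD1 library. In that library the log2 arm ratio over all 60 pairs deviated from the mean of its line by a median of 0.17, against -0.26 in replicate 2 of HT29 MCS and -0.09 to 0.02 in the other libraries. The part of this shift in the members' values was not tested. The intervals cover counting error only, since reads copied from the same molecule were not set apart.

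**Figure D3:**
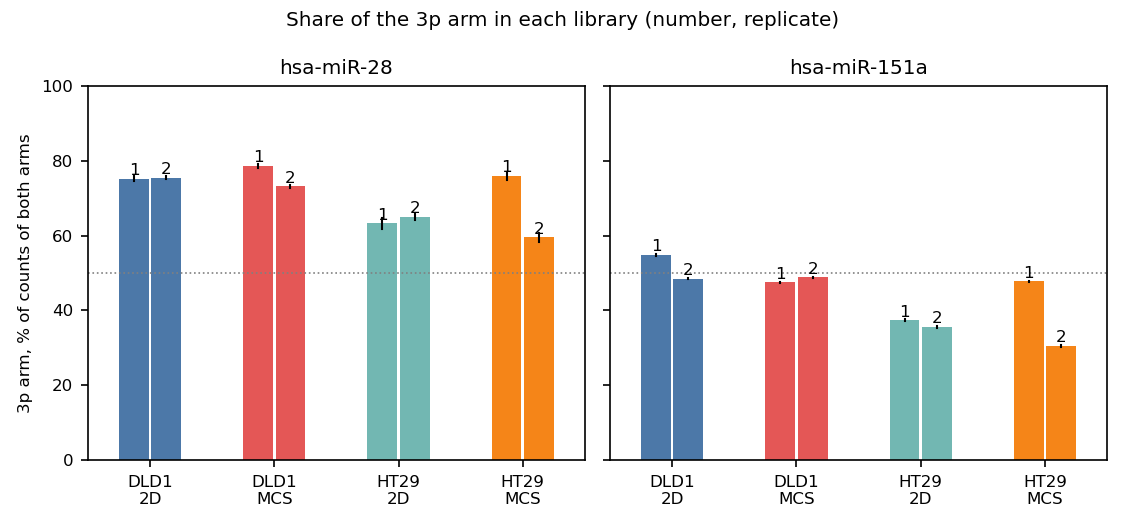
Share of the 3p arm in the counts of both arms of miR-28 (left) and miR-151a (right) in each library, in percent; numbers above bars are replicates, black lines 95% Wilson intervals and the dotted line 50%. The bars of HT29 are lower than those of DLD1 except in replicate 1 of HT29 MCS (75.9% and 47.7%).

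No change of an arm ratio with culture passed the test. The log2 of the 3p to 5p ratio changed from 2D to MCS by 0.05 for miR-28 (95% interval -0.58 to 0.68, adjusted p = 0.920 in limma over all pairs of arms) and by -0.20 for miR-151a (-0.83 to 0.43, adjusted p = 0.690) in DLD1, where 13.1% of the 84 pairs were called. In HT29 the changes were 0.26 (-1.65 to 2.18) and 0.14 (-1.76 to 2.05), both with an adjusted p of 0.998 in limma, and 0 of the 75 pairs (0%) were called. The difference of these changes between the lines, a test added to the design, was 0.21 for miR-28 (-1.51 to 1.94) and 0.34 for miR-151a (-1.36 to 2.05), both with an adjusted p of 0.972 in limma. Between the lines the log2 ratio in HT29 minus DLD1 was -0.66 for miR-28 (95% interval -1.53 to 0.20, adjusted p = 0.156 in limma) and -0.73 for miR-151a (-1.58 to 0.13, adjusted p = 0.124), and neither was called, while 51.7% of the 60 pairs were. Without replicate 1 of HT29 MCS both were called, at -0.94 (adjusted p = 0.0494) and -0.99 (adjusted p = 0.0436), as were 60.7% of all 61 pairs then tested. The median difference over all 60 pairs was -0.61, from which miR-28 lay -0.05 and miR-151a -0.11. The exact permutation p over 4 against 4 libraries was 0.114 for miR-28 and 0.0571 for miR-151a.

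**Figure D4:**
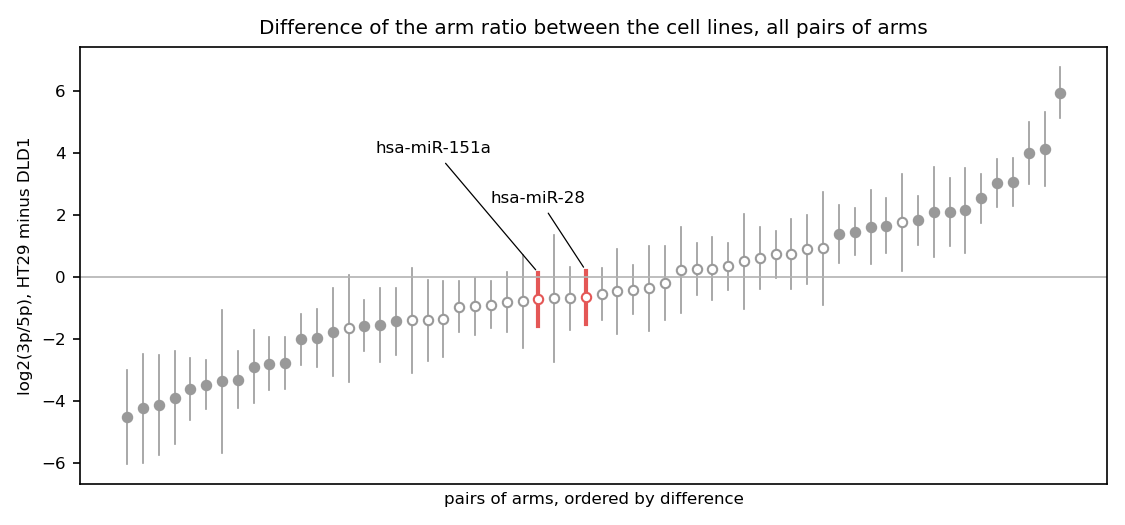
Difference between HT29 and DLD1 in the log2 ratio of 3p to 5p counts for all 60 pairs of arms, in ascending order, with 95% intervals; filled points were called and red marks miR-28 and miR-151a. Both lie in the middle of the order, with intervals that include 0.

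Arm ratios of these hairpins were among the steadier of the 60 pairs, most of which had a scarcer arm. Over the 8 libraries the log2 ratio spanned 1.32 for miR-28 and 1.46 for miR-151a, the 56th and 55th widest of 60, and the median span was 3.02. These spans include the difference between the lines. Both hairpins were among the 17 pairs with both arms at a mean of 100 CPM in both lines, and spans were not compared within those. The 3p arm led in every library for miR-28, as in 19 of the 60 pairs. MiR-151a was among the 13 pairs whose leading arm differed between libraries, the 3p arm leading in replicate 1 of DLD1 2D only.

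MiR-151b was scarce beside miR-151a-5p. It had 49 and 87 counts in DLD1 2D, 128 and 187 in DLD1 MCS, 121 and 174 in HT29 2D, and 120 and 215 in HT29 MCS. In DLD1 both MCS libraries held more than both 2D libraries, although the totals of the libraries do not follow that order. With CPM of the library total the same held (3.10 and 3.41 in 2D against 7.08 and 9.14 in MCS). It held for 29.5% of the 346 tested miRNAs, which are more abundant and do not include miR-151b. No such share was counted over miRNAs as scarce as miR-151b. As a share of the counts of miR-151a-5p and miR-151b together, miR-151b made 0.0703% (95% Wilson interval 0.0532 to 0.0930) and 0.0668% (0.0542 to 0.0824) in DLD1 2D, and 0.128% (0.108 to 0.152) and 0.184% (0.159 to 0.212) in DLD1 MCS. The intervals of the 2D libraries lay below those of the MCS libraries, and those of the MCS libraries did not overlap each other. The exact permutation p was 0.333, the smallest that 2 against 2 allow. In HT29 the shares were 0.150% and 0.100% in 2D and 0.144% and 0.152% in MCS, where the cultures overlapped. With a mean of 5.68 CPM miR-151b was below the filter in DLD1. Tested without the filter, where 11.5% of 1492 miRNAs were called, it had a log2 fold change of 1.73 (standard error 0.46, adjusted p = 0.00244 in edgeR's quasi-likelihood test). Adding its counts to miR-151a-5p left the log2 fold change of the latter at 0.53.

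MiR-708 was close to absent in both lines. Its 3p arm, the relative of miR-28-3p by sequence, had 21 and 32 counts in DLD1 2D, 25 and 35 in DLD1 MCS, 11 and 34 in HT29 2D, and 11 and 19 in HT29 MCS. These make 1.02 to 1.71 CPM of the library total, a narrow range in which the lines overlapped. Its 5p arm had 2 and 1 counts in DLD1 2D, 0 and 4 in DLD1 MCS, 0 and 1 in HT29 2D, and 0 and 0 in HT29 MCS. A count of 0 allows up to 3 counts, which is 0.166 CPM in replicate 1 of DLD1 MCS and between 0.175 and 0.286 CPM in the HT29 libraries at 0. Neither arm reached the filter, and at these counts no change between cultures was detectable. MiR-3139, which has the seed of miR-708-5p, had 118 and 81 counts in DLD1 2D and 9 and 37 in DLD1 MCS. In HT29 it had 47 and 143 in 2D and 26 and 43 in MCS, so that it too stayed under 10 CPM in every library.

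**Figure D5:**
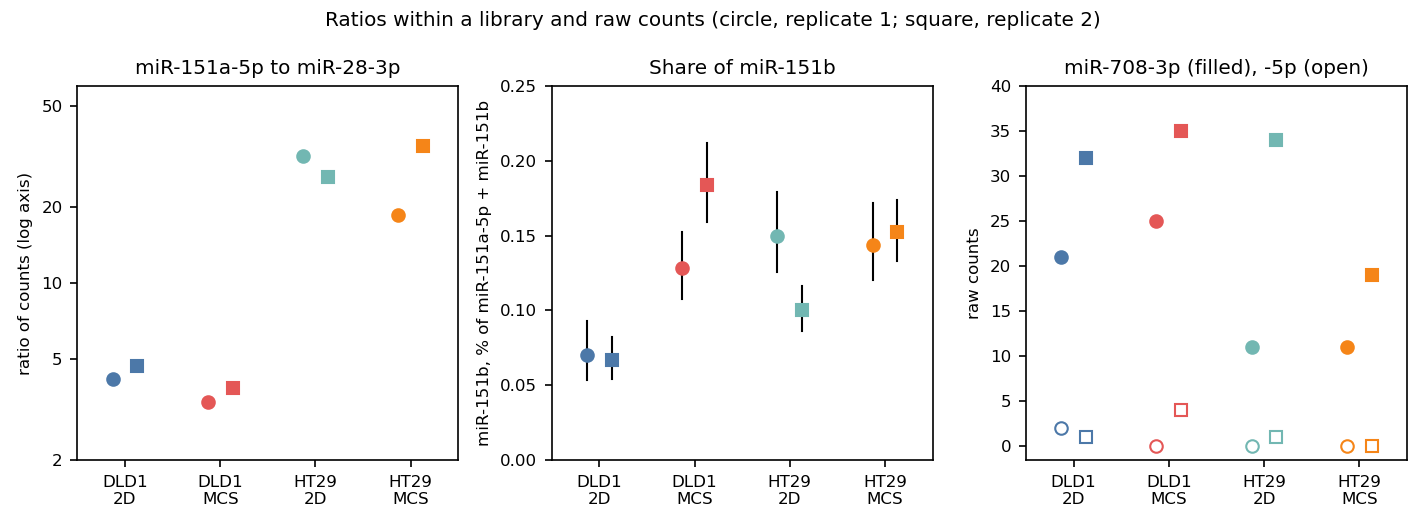
The ratio of miR-151a-5p to miR-28-3p counts (left, log axis), the share of miR-151b in the counts of miR-151a-5p and miR-151b (middle, percent, with 95% Wilson intervals) and raw counts of the arms of miR-708 (right; filled, 3p; open, 5p); circles are replicate 1 and squares replicate 2. All HT29 ratios (18.5 to 34.6) are above all DLD1 ratios (3.40 to 4.69), the miR-151b share is lowest in DLD1 2D, and miR-708-5p has at most 4 counts.

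MiR-95, like miR-28 and miR-151a, derives from a LINE-2 element. MiR-95-3p had 12.5 and 18.3 normalized CPM in DLD1 2D and 101 and 140 in DLD1 MCS. Both MCS libraries were far above those of 2D, and the log2 fold change was 2.96 (standard error 0.30, adjusted p = 1.01e-19 in edgeR's quasi-likelihood test), with 2.74 under TMM and 2.56 with library totals alone. Of all 346 miRNAs tested in DLD1, 45.4% had both MCS libraries above both 2D libraries and 41.3% were called. In HT29 it had 7 and 61 counts in 2D and 13 and 66 in MCS, below the filter. MiR-95-5p had 1 count, in replicate 2 of HT29 MCS, over the 8 libraries.

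The miRNAs most alike to each member were ranked by Pearson's r of log2 normalized CPM over the 8 libraries, with the mean of each line subtracted, among the 249 others tested in both lines. For miR-28-3p they were miR-3184-3p (r = 0.99), miR-423-5p (0.99) and miR-182-5p (0.98), and on CPM of the library total these r were 0.98, 0.97 and 0.95. For miR-28-5p they were miR-183-3p (0.98), miR-151a-5p (0.97) and miR-152-3p (0.97), with 0.26, 0.56 and 0.79 on CPM of the total. For miR-151a-5p they were let-7f-5p (1.00), miR-183-3p (0.98) and miR-191-5p (0.98), with 0.70, 0.12 and 0.87 on CPM of the total. For miR-151a-3p they were miR-92a-3p (0.97), miR-10a-5p (0.97) and miR-148b-3p (0.97), with 0.28, 0.74 and 0.09 on CPM of the total. All miRNAs of a library share its scaling factor, and the members correlated with that factor alone at 0.91 to 0.98. The correlations of miR-28-3p with its 3 most alike miRNAs stayed at 0.948 or above on both scales, and those of the other members fell below 0.9 on CPM of the total. Each set of 3 was picked as the highest of 249 in these same libraries, so high values on normalized CPM followed from the choice. The opposite arms of miR-28 correlated at 0.89 on normalized CPM and at 0.18 on CPM of the total, and those of miR-151a at 0.93 and 0.10.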

How the data were processed

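Small RNA libraries of DLD1 and HT29 cells in 2D and MCS were grouped by the submitters' labels. The authors trimmed adapters with cutadapt 1.11, aligned reads with Bowtie2 2.1.0 to hg19 and then to miRBase (tools per the submitters' processing notes), and deposited for each mature miRNA its raw read counts, without normalization. HT29 tables also hold 15 entries that name no miRNA, with 2590 counts in 1 library (0.00988%), which were left out. The tables of single libraries and the series table were compared over 12572 counts, of which 0 differed.

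Counts were fitted with the quasi-likelihood test of edgeR 4.0.16 over all miRNAs with a mean of 10 CPM, without a replicate term. Arm ratios, log2 of the 3p count plus 0.5 over the 5p count plus 0.5, were fitted with limma 3.58.1 over all pairs with both arms at 10 CPM. DESeq2 1.42.0, R 4.3.3 and Python 3.11.15 were also used. The tests were tried on simulated data. Wilson intervals are at 95% and likeness used log2 of normalized CPM plus 1. Named miRNAs are all members, those with the seed of a member held by the RefSeq table, the 3 most alike to each member tested in both lines, and miR-95. Members, lists and tests were chosen with earlier results of these data known. Alternatives were other scalings, filters, tests, a replicate block, miR-151b merged with miR-151a-5p, and each library left out.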

Additional observations from a re-analysis of the deposited data

How the results depend on the processing

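The counts of members called depended on the processing as follows. In DLD1, 2 members were called, against 1 with TMM and 0 with DESeq2, the fit of all 8 libraries, library totals alone and an upper quartile of tested miRNAs, and 0 to 2 with each library left out (0 without either 2D library, 1 without replicate 2 of MCS). Between the lines, 1 was called, against 2 with DESeq2, TMM and library totals alone, 4 of 7 with no filter (all but miR-28-5p and the arms of miR-708, with 32.9% of all miRNAs called) and 4 with the replicate block (72.4% called), and 0 to 3 with each library left out (0 without any of the DLD1 libraries). For the arm ratio between lines, 0 of 2 were called, against 2 with the replicate block (adjusted p 0.0117 for miR-28 and 0.00623 for miR-151a, limma), which called 85% of all pairs, and 0 to 2 with each library left out. No member was called for HT29, the interaction or the arm ratios within lines under any alternative run.

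The labels do not say whether same-numbered libraries share more than a number. Their deviations correlated at 0.32 in DLD1 and 0.79 in HT29, and the replicate block moved the number of miRNAs called from 143 to 139 in DLD1, from 0 to 47 in HT29, and from 0 to 40 for the interaction. Over all miRNAs, the fit of all 8 libraries called 30 in DLD1, and no filter called 586 between the lines. The share of DLD1 calls that were higher moved from 103 of 143 to 76 of 138 with TMM, 71 of 136 with DESeq2, 60 of 143 with library totals and 49 of 142 with the upper quartile of tested miRNAs.

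The following values changed sign, none of them called. With library totals alone, the log2 values became -0.061 for miR-151a-3p in DLD1, 0.10, 0.16 and 0.38 for miR-28-5p, miR-151a-5p and miR-151b in HT29, -0.082 for miR-151a-3p between lines, and 0.44 and 0.019 for miR-151a-3p and miR-151a-5p in the interaction. With the upper quartile of tested miRNAs they were -0.15 and -0.023 for miR-151a-3p in DLD1 and HT29, and 0.37 in the interaction, with DESeq2 0.0053 for miR-151a-3p in the interaction, and with the replicate block 0.25 for miR-151b in HT29. With each library left out, HT29 values ran from -1.05 to 1.24 (miR-28-3p), -1.01 to 0.79 (miR-28-5p), -1.28 to 1.42 (miR-151a-3p), -0.99 to 0.97 (miR-151a-5p) and -1.03 to 1.52 (miR-151b). Those of the interaction ran from -1.78 to 0.45 (miR-28-3p), -1.74 to 0.034 (miR-28-5p), -1.52 to 1.14 (miR-151a-3p) and -1.46 to 0.48 (miR-151a-5p). Arm ratios ran from -0.17 to 0.27 for miR-28 in DLD1, and in HT29 from -0.29 to 0.81 for miR-28 and from -0.39 to 0.67 for miR-151a. Their difference between lines ran from -0.34 to 0.76 for miR-28 and from -0.18 to 0.87 for miR-151a. The causes were not tested. Where a library was left out, the remaining library of its group was taken to vary like the other groups. Low counts limit miR-708 and miR-151b.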
